A study of Mus musculus with 4 samples.

Results

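Cadherins and neural adhesion molecules of cultured hair follicle mesenchyme were examined as a set of 8 genes, Cdh2, Cdh3, Cdh4, Cdh6, Cdh11, Cdh13, L1cam and Ncam1, out of 51826 gene rows in the deposited count table. The rows were found by gene name, and each name matched a single row. The genes had been chosen by their measured levels and passage differences in these same 4 libraries, so their levels and differences are given as a description, without a test, and are not independent evidence of any direction. All 8 had a mean count of at least 10 over the 4 libraries and were among the 16734 genes tested. For Cdh4 that mean came almost entirely from a single library.

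Dermal papilla cells (DPCs) come from the cluster of mesenchyme enclosed by the hair bulb, and dermal sheath cells (DSCs) from the connective tissue sleeve around the follicle. Both were grown from whisker follicles of young EGFP-transgenic C57BL/6J mice, labelled wild type (WT), in DMEM with serum. The strain, transgene and serum come from the study's text and not from the labels. The design asked how serial passage alters the transcriptome of these cells, in a study of their return to follicles after injection. The 4 groups were DPCs at passage 3 (low passage) and passage 9 (high passage) and DSCs at the same 2 passages, with no drug or other treatment in any group and the EGFP transgene shared by all. Each group was 1 library, the number of mice or cultures behind a library is not stated, and cells of a library are a mixed outgrowth rather than a clone.

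Cadherins are calcium-dependent adhesion proteins. The outermost repeat of a cadherin on a cell binds a cadherin on its neighbour, and the cytoplasmic tail of classical cadherins holds catenins that connect the junction to actin. Type I classical cadherins (Cdh2, Cdh3 and Cdh4 here) carry a His-Ala-Val motif in that repeat, type II cadherins (Cdh6 and Cdh11) do not, and Cdh13, or T-cadherin, has no cytoplasmic tail and is held to the membrane by a lipid (GPI) anchor. L1CAM and NCAM1 belong to the immunoglobulin superfamily, mediate adhesion of neurons and glia, and NCAM is also found in follicle mesenchyme, where it is used as a marker.

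The stretches below show the place at which the cadherin types named above differ. Each is 60 coding bases of the outermost repeat, written 5′ to 3′ on the sense strand from the first in-frame codons for Asp-Arg-Glu, and read from GENCODE M21 transcripts of build GRCm38. The capitals mark the 9 bases at the place of the His-Ala-Val motif.
Cdh3 (chr8:106536945-106537106, plus strand, across an intron): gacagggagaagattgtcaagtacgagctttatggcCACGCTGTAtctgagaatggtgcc
Cdh4 (chr2:179843098-179847252, plus strand, across an intron): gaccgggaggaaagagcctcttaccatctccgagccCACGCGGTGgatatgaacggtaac
Cdh6 (chr15:13064395-13064454, minus strand): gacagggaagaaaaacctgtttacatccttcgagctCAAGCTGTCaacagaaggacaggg
Cdh11 (chr8:102673927-102673986, minus strand): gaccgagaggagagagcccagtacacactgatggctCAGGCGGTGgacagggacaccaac
Cdh13 (chr8:118851845-118968081, plus strand, across an intron): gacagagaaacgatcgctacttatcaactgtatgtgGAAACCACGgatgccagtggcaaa
The capitals encode His-Ala-Val in Cdh3 and Cdh4 and not in Cdh6, Cdh11 or Cdh13. Of the 9 bases, 7 of Cdh4, 7 of Cdh6, 6 of Cdh11 and 2 of Cdh13 were the same as in Cdh3. Over all 60 bases the match to Cdh3 was 58.3% for Cdh4, 43.3% for Cdh6, 48.3% for Cdh11 and 50% for Cdh13. Cdh2, not printed, also encodes His-Ala-Val there, with 6 of the 9 bases and 45% of the 60 the same as in Cdh3, so the overall match does not sort the genes by type.

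Total counts lay between 34981284 and 47604059 per library, and between 22230 and 23548 genes had a count. A count of 0 allows up to 3 counts per library, which is 0.0658 to 0.0836 CPM (counts of a gene relative to the TMM-scaled library total). Genes with 2 counts outnumbered genes with 3 counts in every library (1339 against 583 in low-passage DPCs). This alone does not show whether both mates of a pair were counted. Where both were, the limit is 6 counts and the bounds on folds below halve. The labels name no batch, so passage and library preparation cannot be told apart. The labelled cell types were checked against their markers: the mesenchymal genes Col1a1, Col1a2 and Acta2 were abundant in all 4 libraries and Sox2, a papilla gene, was higher in DPCs (1677 and 1491 counts against 269 and 178), but the papilla markers Alpl (8, 10, 23 and 6 counts), Lepr (18, 10, 9 and 0) and Wif1 (0 in all) were near or at 0. Of the 12 papilla markers tested, 4 were higher in DPCs than in DSCs at passage 3 and 0 lower, whereas 1 was higher and 3 were lower at passage 9, among them Bmp4 (2104, 137, 5931 and 5724 counts). The 8 sheath markers summed to 9765 CPM in low-passage and 3556 CPM in high-passage DPCs, the former above the 7774 and 6974 CPM of both DSC libraries. This sum, mostly Acta2 (262118 and 217199 counts in DPCs and DSCs at passage 3), was thus not higher in DSCs at passage 3. Of the 8 sheath markers, 1 was higher in DPCs at passage 3 (Itga8) and 2 were lower (Acan and Abi3bp). At passage 9, 0 were higher and 2 lower. High-passage DPCs stood apart in the summed level of 8 fibroblast markers, at 5061 CPM against 15701 in low-passage DPCs and 24008 and 21986 in DSCs of low and high passage. That sum is mostly Col1a1 and Col1a2, while the fibroblast gene Pdgfra was highest in high-passage DPCs (11173, 29093, 4594 and 12132 counts). Where 4 values follow each other, those of DPCs come first and those of DSCs after them, each with passage 3 before passage 9.

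Of the 8 genes, Cdh11, Cdh2, Cdh13 and Ncam1 held most of the summed level, and Cdh13 was far higher in high-passage DPCs than in the other libraries. The deposited FPKM scale is per length, though the lengths behind Cdh6, L1cam and Ncam1 are uncertain as described with these genes. On that scale Cdh11 was highest in 3 libraries and Cdh13 in high-passage DPCs. Cdh2 ranked 2 in low-passage DPCs and 3 elsewhere, and Ncam1 ranked 2 in both DSC libraries and 4 in both DPC libraries. Cdh6 ranked 5 in every library, and each step in this order is without an error on the FPKM scale. Cdh3, Cdh4 and L1cam were each below 1 FPKM in all 4 libraries, so the differences of these 3 are between low levels. The summed FPKM of the 8 genes was 209, 378, 226 and 212, and high-passage DPCs were the only library of the 4 above 300.

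**Figure D1:**
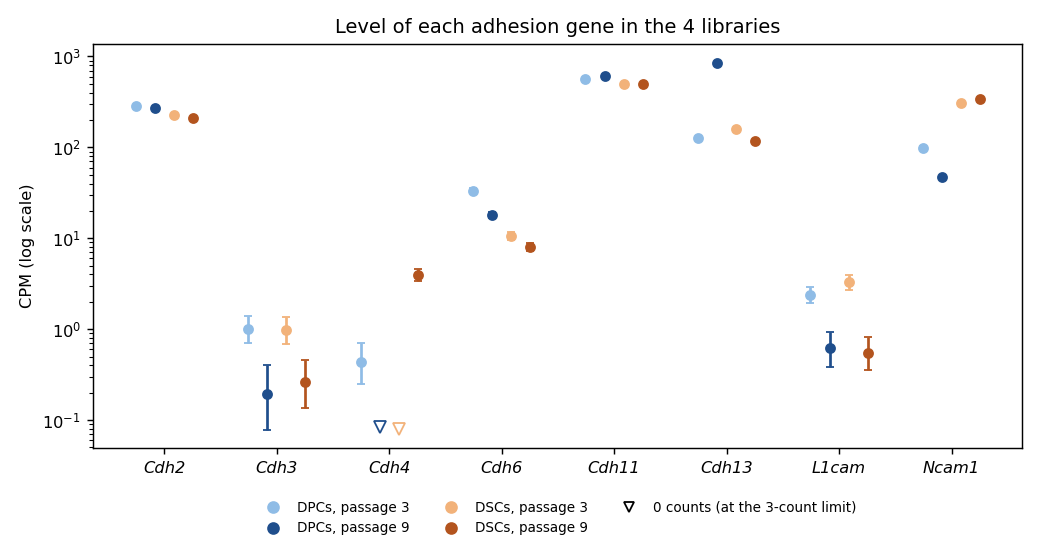
Level of each of the 8 adhesion genes in CPM (log axis) in the 4 libraries, with each point a library. Bars are the exact 95% Clopper-Pearson interval of the gene's share of the library's counts, which covers counting error only. Cdh13 reached 851 CPM in high-passage DPCs against 116 to 159 in the other libraries, and open triangles place the 0 counts of Cdh4 at the 3-count limit.

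A difference was called at 4-fold or more between 2 libraries, which is 2 on the log2 CPM scale (TMM, prior count of 2), and the interval beside it is the exact 95% interval for the counts of those libraries. It covers counting error only, since no group has a replicate. From passage 3 to passage 9 in DPCs, 1 of the 8 genes rose (Cdh13) and 2 fell (Cdh3 and Cdh4), where 5.58% of all tested genes rose and 4.36% fell. In DSCs, 1 rose (Cdh4) and 1 fell (L1cam), beside 2.67% and 1.16% of all tested genes. DPCs at passage 3 were higher than DSCs for 1 gene (Cdh4) and lower for 0, beside backgrounds of 1.52% and 2.77%. At passage 9, DPCs were higher for 1 gene (Cdh13) and lower for 2 (Cdh4 and Ncam1), beside 2.50% and 3.91%. Because the genes were picked on these comparisons, nothing is read from their counts against the background. The median log2 difference of the 8 genes was -0.98, -0.26, 0.10 and 0.23 in these 4 comparisons, and that of all tested genes was 0.03, 0.00, 0.00 and -0.01. The comparisons share libraries and are not separate evidence. No member was called in the same direction in both cell types with passage on this scale, whereas on FPKM without a pseudocount Cdh3 and L1cam passed 4-fold downward in both. Just inside the threshold was Cdh3 in DPCs at -2.10, and just outside it were L1cam in DPCs at -1.88 and Cdh3 in DSCs at -1.71.

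**Figure D2:**
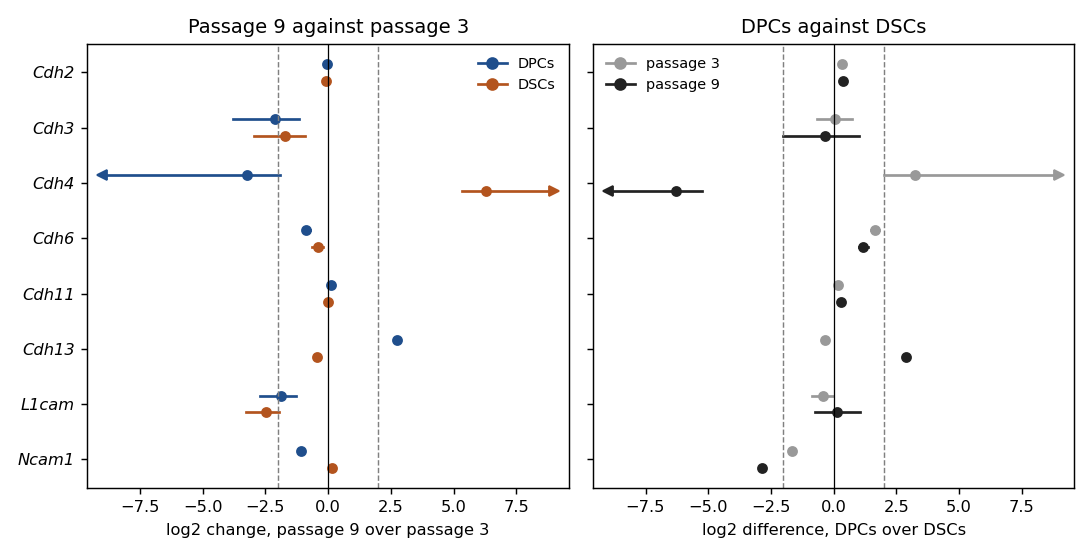
Difference of log2 CPM of each gene between passages in DPCs and DSCs (left) and between DPCs and DSCs at each passage (right). Points are the differences, lines the exact 95% counting interval, arrows an interval without a limit on that side, and dashed lines the 4-fold threshold. Cdh13 in DPCs lies at 2.76 and Cdh13 in DSCs at -0.45.

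Cdh13 (ENSMUSG00000031841, chr8:118283733-119324921, plus strand) encodes T-cadherin, known as a receptor for adiponectin and for low-density lipoprotein and studied in vessel walls and neurons. It had 4621, 30555, 6015 and 5303 counts, which is 126, 851, 159 and 116 CPM. High-passage DPCs stood far above the other libraries, which lay within a narrow range. The gene rose by 2.76 on the log2 scale in DPCs (2.72 to 2.81), a 6.78-fold difference, while its change in DSCs was -0.45 (-0.50 to -0.39). Of the 16734 genes tested, 476 rose by more on the log2 scale in DPCs, and by its gain of 726 CPM Cdh13 ranked 46 of all genes in the table. In a bulk library, a larger share of cells with a transcript and more transcript per cell cannot be told apart.

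Between the cell types, Cdh13 was slightly lower in DPCs at passage 3, at -0.34 on the log2 scale (-0.39 to -0.28), and 7.32-fold higher in DPCs at passage 9 (log2 difference 2.87, 2.83 to 2.91). The passage change in DPCs exceeded that in DSCs by 3.21 on the log2 scale, with a counting interval of 3.14 to 3.28. Its deposited FPKM was 31.0, 209, 36.9 and 26.9, and the FPKM ratio without a pseudocount gave 2.76 in DPCs and -0.46 in DSCs. Within the summed FPKM of the 6 cadherins, Cdh13 made up 16.3%, 57.1%, 23.3% and 19.0%. Cdh11 accordingly made up 48.6%, 27.1%, 48.9% and 52.6%, although its own level in high-passage DPCs was not lower than in the other libraries.

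**Figure D3:**
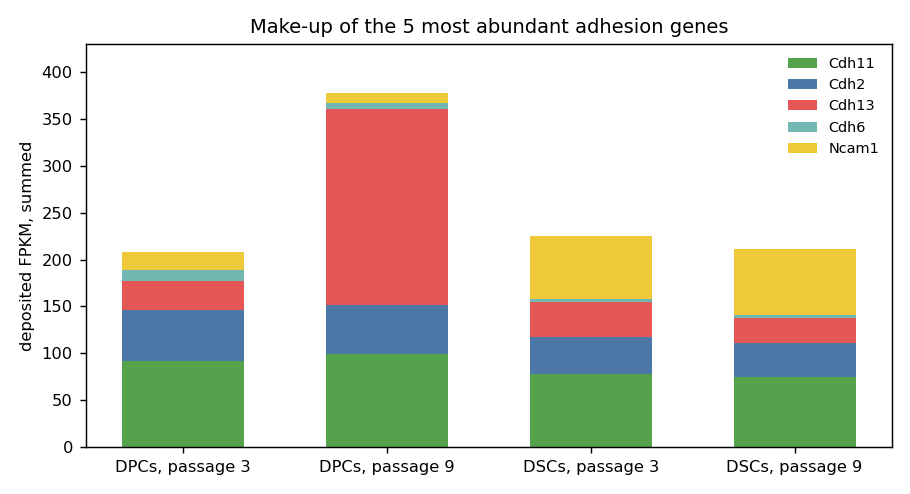
Deposited FPKM of the 5 most abundant of the 8 genes, stacked for each of the 4 libraries (1 library per bar, so no error bar). Cdh13 is 209 FPKM of the high-passage DPC bar and between 26.9 and 36.9 FPKM in the others, and Ncam1 is 66.9 and 70.6 FPKM in DSCs against 18.7 and 11.1 in DPCs.

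Cdh11 (ENSMUSG00000031673, chr8:102632095-102785642, minus strand), the mesenchymal type II cadherin known as OB-cadherin, had 20689, 21915, 19031 and 22455 counts, or 562, 611, 502 and 493 CPM. Its level was close in all 4 libraries, with the highest in high-passage DPCs. The change with passage was 0.12 on the log2 scale in DPCs (0.09 to 0.15) and -0.03 in DSCs (-0.05 to 0.00), and DPCs exceeded DSCs by 0.16 at passage 3 and 0.31 at passage 9. In FPKM, Cdh11 stood at 92.0, 99.2, 77.4 and 74.3, with 95.5% of tested genes below it in the lowest case.

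Cdh2 (ENSMUSG00000024304, chr18:16588877-16809246, minus strand) encodes N-cadherin, the classical cadherin of mesenchymal and neural cells. Its counts of 10523, 9825, 8514 and 9566 correspond to 286, 274, 225 and 210 CPM. Both DPC libraries lay above both DSC libraries, and the passages of a cell type lay close together. The change with passage was -0.06 in DPCs (-0.10 to -0.02) and -0.10 in DSCs (-0.14 to -0.05) on the log2 scale, while the difference between DPCs and DSCs was 0.35 at passage 3 and 0.38 at passage 9. Passage changes of DPCs and DSCs differed by 0.03, with a counting interval of -0.02 to 0.09 that includes 0. With libraries of this depth the counting error of Cdh2 and Cdh11 is small, and the unknown spread between cultures is the limit on differences of this size.

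Cdh6 (ENSMUSG00000039385, chr15:13034200-13173639, minus strand) encodes K-cadherin, a type II cadherin of kidney and neural crest. It had 1229, 654, 405 and 363 counts, or 33.4, 18.2, 10.7 and 7.97 CPM. The libraries fall in that order, with both DPC libraries above both DSC libraries and each passage 3 library above its passage 9 counterpart. The differences with passage were -0.87 in DPCs (-1.01 to -0.74) and -0.42 in DSCs (-0.63 to -0.22) on the log2 scale, neither of which reached 4-fold. DPCs exceeded DSCs by 1.64 at passage 3 (1.48 to 1.81) and by 1.19 at passage 9 (1.01 to 1.38), also short of the threshold. The deposited end points of Cdh6 differ from those of GENCODE M21 (13028701 to 13173675), which is the longer model. Counts divided by FPKM and depth implied a length near 2.96 kb for Cdh6, against 8.17 kb for its M21 transcript, so its FPKM of 11.7, 6.34, 3.52 and 2.58 is comparable between libraries but is relative to a shorter model.

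Cdh3 (ENSMUSG00000061048, chr8:106510891-106557297, plus strand) encodes P-cadherin, known in the epithelial matrix of the hair bulb and required for normal hair in humans. Only 37, 7, 37 and 12 counts were found, or 1.01, 0.195, 0.976 and 0.263 CPM. Both passage 3 libraries had the same count, and both passage 9 libraries were lower. Cdh3 fell by 2.10 on the log2 scale in DPCs (interval -3.78 to -1.18), and in DSCs its change of -1.71 (-2.96 to -0.92) missed the threshold. On the FPKM scale without a pseudocount the changes were -2.52 in DPCs and -2.0 in DSCs, the latter only just past 4-fold. The interval of the difference between the log2 CPM changes of Cdh3, -2.21 to 1.17, includes 0, as do those of DPCs against DSCs at passage 3 (-0.65 to 0.74) and at passage 9 (-2.02 to 1.03). The call in DPCs was lost with a prior count of 10, where the change was -1.48, with halved counts, where it was -1.90, and with 0.1 or 1 added to the FPKM, where it was -1.18 or -0.22. Of the keratinocyte markers, Krt5, Krt14, Krt1, Krt15, Dsg3 and the epithelial cadherin Cdh1 were at 0 in all 4 libraries. Krt10 (61, 33, 53 and 58 counts) and Trp63 (15, 10, 15 and 35) had counts in each. The 11 keratinocyte markers summed to 14.4, 2.20, 16.4 and 6.50 CPM. Itga6 (455, 32, 551 and 203 counts) held most of this sum except in high-passage DPCs, where Krt10 had 33 counts. Of the 3 markers tested, 1 fell in DPCs and 0 in DSCs. The part of such cells in the level of Cdh3 was not tested.

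Cdh4 (ENSMUSG00000000305, chr2:179442431-179899373, plus strand) encodes R-cadherin, a type I cadherin of retina and brain. It had 16, 0, 0 and 180 counts, so it was found in low-passage DPCs at 0.435 CPM and in high-passage DSCs at 3.95 CPM and in neither of the other libraries. Against the 3-count limit per library, Cdh4 fell at least 5.20-fold with passage in DPCs and rose at least 49.9-fold in DSCs. At passage 3 it was at least 5.50-fold higher in DPCs, and at passage 9 at least 47.2-fold lower. With 6 counts as the limit these bounds are 2.60, 25.0, 2.75 and 23.6, so that those resting on the 16 counts no longer reach 4-fold. In FPKM its highest value was 0.526, with 17.9% of tested genes below it, and a difference of this kind between 2 single libraries has no replicate check.

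Ncam1 (ENSMUSG00000039542, chr9:49502136-49798925, minus strand) had 3642, 1673, 11755 and 15584 counts, or 99.0, 46.6, 310 and 342 CPM. Both DSC libraries lay well above both DPC libraries, and high-passage DPCs were lowest. Ncam1 was 7.34-fold lower in DPCs than in DSCs at passage 9 (log2 difference -2.87, -2.95 to -2.80), and at passage 3 the difference of -1.65 (-1.70 to -1.59) missed the threshold. With passage it changed by -1.09 in DPCs (-1.17 to -1.0), short of 4-fold, and by 0.14 in DSCs (0.11 to 0.18), and these values differed by -1.23 (-1.32 to -1.14). On the FPKM scale the change in DPCs was -0.75. The counts per FPKM implied lengths of 5.51, 4.31, 4.53 and 4.64 kb for Ncam1 in the 4 libraries, so counts and FPKM do not rest on the same length. The antisense gene Gm11149 shares 417 exonic bases (4.81%) with Ncam1, and without a statement on strand their reads cannot be told apart there. Gm11149 itself had 3, 7, 10 and 15 counts, few beside those of Ncam1.

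L1cam (ENSMUSG00000031391, chrX:73853778-73896105, minus strand) had 88, 22, 124 and 25 counts, or 2.39, 0.613, 3.27 and 0.549 CPM. Both passage 3 libraries lay above both passage 9 libraries, and the cell types did not separate. L1cam fell by 2.47 on the log2 scale in DSCs (interval -3.26 to -1.95), and its change in DPCs was -1.88 (-2.71 to -1.28). The difference of these changes, 0.59, had a counting interval of -0.38 to 1.60, which includes 0. DPCs against DSCs gave -0.44 at passage 3 (-0.86 to -0.05) and 0.15 at passage 9 (-0.74 to 1.05). On the FPKM scale without a pseudocount the changes were -2.51 in DPCs and -3.24 in DSCs, both past 4-fold, with FPKM values of 0.779, 0.137, 0.862 and 0.0912. The counts per FPKM implied lengths of 3.20, 4.59, 3.71 and 5.76 kb for L1cam in the 4 libraries, so counts and FPKM do not rest on a single length. How the lengths were set is not given in the sources used here. L1cam shares 100 exonic bases (1.36%) with Arhgap4 on the same strand, which had 34, 31, 34 and 22 counts.

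Some marker genes of other cell types known to carry L1 and NCAM also differed between passages in the same libraries. Of the Schwann cell markers, Sox10 had 28, 0, 116 and 0 counts, Ngfr 144, 0, 544 and 0, and Erbb3 18, 0, 44 and 9. The 10 Schwann markers summed to 21, 13.9, 48.1 and 48.6 CPM, with Egr2 holding most of the high-passage DSC sum (1714 counts), and of the 8 tested 5 fell in DPCs and 4 in DSCs. Of 8 neuronal markers, Rbfox3, Snap25 and Nefl were at 0 throughout, Tubb3 had 482, 33, 670 and 460 counts, and the sum was 14.8, 1.31, 19.7 and 10.8 CPM. Of the 2 neuronal markers tested, 2 fell in DPCs and 1 in DSCs. L1cam and Cdh3 were highest in the libraries in which Sox10 and Ngfr had counts, whereas Ncam1 was highest in high-passage DSCs, where Sox10 and Ngfr were at 0. The part of Schwann cells in the level of L1cam was not tested.

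Genes that act with these adhesion proteins were taken as 12 lists of 139 genes, of which 101 were tested. In DPCs 12 of the 101 rose and 13 fell with passage, beside 5.58% and 4.36% of all tested genes, and in DSCs 4 rose and 4 fell, beside 2.67% and 1.16%. DPCs were higher than DSCs for 2 and lower for 9 at passage 3 (1.52% and 2.77% of all tested genes), and higher for 6 and lower for 9 at passage 9 (2.50% and 3.91%). The same shares are the background to the counts of each list that follow. The medians were 0.15, 0.21, -0.23 and -0.12 on the log2 scale, beside 0.03, 0.00, 0.00 and -0.01 over all tested genes. These lists too were drawn up with earlier results of the data known, and called genes outside the naming rule (given with the processing) were named after their values were seen.

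**Figure D4:**
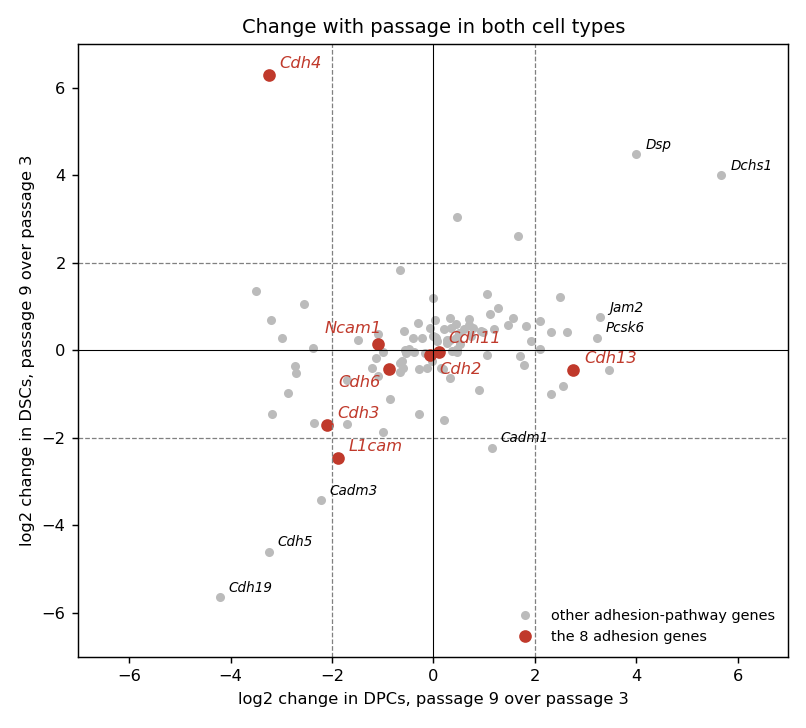
Change of log2 CPM from passage 3 to passage 9 in DPCs (horizontal) and DSCs (vertical), 1 point per gene, for the 8 adhesion genes (red) and the 101 tested genes of the 12 lists (grey), with dashed lines at 4-fold. Dchs1 and Dsp lie at the upper right, Cdh5, Cdh19 and Cadm3 at the lower left, and Cdh4 alone at the upper left. The points of genes without counts in a library, such as Cdh4, depend on the prior count.

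Of the remaining type I cadherins, E-cadherin (Cdh1) had 0 counts in all libraries and Cdh15, the cadherin of muscle precursors, had 0, 0, 0 and 4, so neither was tested. Of 11 further type II cadherins, 5 were tested, 3 fell in DPCs and 2 in DSCs, with 0 rising in either. The endothelial cadherin Cdh5 (16, 0, 45 and 0 counts) fell at least 5.20-fold in DPCs and at least 18-fold in DSCs. The Schwann lineage cadherin Cdh19 (33, 0, 95 and 0 counts) fell at least 10.7-fold and 38.1-fold. Cdh10, with 222, 22, 234 and 453 counts, fell by 3.20 on the log2 scale in DPCs (-4.0 to -2.66), whereas its change in DSCs was 0.68. Cdh24 changed by 0.44 and 0.59. Cdh5 and Cdh19 are also among the endothelial and Schwann marker lists, and the 7 endothelial markers summed to 2.55, 5.52, 8.10 and 1.29 CPM, with 2 of the 4 tested falling and 1 rising in DPCs and 3 falling in DSCs. At passage 9, Cdh10 was lower in DPCs than in DSCs by 3.91 on the log2 scale.

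Among 20 atypical cadherins, 12 were tested, of which 2 rose and 2 fell in DPCs and 2 rose in DSCs. Dchs1, a giant cadherin of planar cell polarity, had 166, 8356, 89 and 1746 counts. It rose by 5.67 on the log2 scale in DPCs (5.47 to 5.92) and by 4.0 in DSCs (3.72 to 4.35). Celsr2, a seven-pass cadherin of the same field, rose by 2.11 in DPCs and changed by 0.66 in DSCs. Fat1 was the most abundant on the FPKM scale, at 98.3, 136, 112 and 144, with changes of 0.50 and 0.39, and Clstn1, a neural cadherin of vesicle transport, changed by -0.49 and 0.03. Clstn2 rose in DSCs, and Cdh17 and Cdh26 fell in DPCs.

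Of 11 desmosomal genes, 5 had 0 counts in all libraries and 4 were tested. Dsp, which links desmosomes to intermediate filaments, had 10, 184, 84 and 2307 counts and rose by 4.0 in DPCs (3.33 to 5.32) and by 4.48 in DSCs (4.20 to 4.85) on the log2 scale. Dsc2 fell in DPCs. The plaque genes Jup (-0.66 and -0.49) and Pkp2 (-1.09 and 0.37) were not called in either cell type.

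Catenins and linkers tie cadherins to actin. Of 14 tested, 2 rose in DPCs, none fell, and 0 were called in DSCs. Ctnnb1, encoding β-catenin, had 126, 116, 71.6 and 97.8 FPKM, with changes of -0.23 and 0.29, and vinculin (Vcl) had 191, 124, 164 and 135 FPKM, with changes of -0.61 and -0.25. The 2 that rose were Ctnnd2, a neural δ-catenin (16, 100, 249 and 168 counts, 2.55 in DPCs and -0.82 in DSCs), and Plekha7, a component of the belt-like junction (62, 307, 124 and 200 counts, 2.31 and 0.42). Of the transcription factors that set which cadherin a cell makes, 8 were tested and 0 were called in any of the 4 comparisons. Values were -0.55 and -0.06 for Snai2, 1.48 and 0.58 for Zeb1 and 1.83 and 0.56 for Tcf4 in DPCs and DSCs.

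Enzymes that process or shed these proteins included 1 that rose and 1 that fell in DPCs among 12 tested, and 0 called in DSCs. Pcsk6, a proprotein convertase, had 2440, 22162, 20906 and 30650 counts and rose by 3.22 in DPCs (3.16 to 3.28), which brought high-passage DPCs near both DSC libraries. The sheddase Adam12 fell by 2.35 in DPCs (-2.45 to -2.26) and changed by -1.65 in DSCs, and the γ-secretase subunit Ncstn changed by 0.02 and 0.30. Nectins and nectin-like genes, 9 of 9 tested, included Cadm3, a neural nectin-like protein (74, 14, 197 and 20 counts), which fell by 2.22 in DPCs (-3.31 to -1.53) and by 3.42 in DSCs (-4.31 to -2.90). Cadm1 fell by 2.23 in DSCs and changed by 1.15 in DPCs, and Nectin4 rose in DSCs. Nectin1 (0.98 and 0.41), Nectin2 (0.70 and 0.72) and Pvr (0.18 and -0.43) were not called.

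Partners of L1 gave 0 called genes with passage among 7 tested relatives and linkers, with Msn, an actin linker, at -1.10 and -0.58, Rdx at 0.15 and -0.39 and Ank3 at 1.20 and 0.49. Of 5 tested contactins and co-receptors, Cntn2 (66, 4, 133 and 414 counts) fell by 3.50 in DPCs (-5.93 to -2.58) and Cntn1 rose there, while Nrp1 changed by 1.56 and 0.74 and Plxna3 by 0.07 and 0.21. Of 12 tested relatives and partners of NCAM, Ncam2 rose and the polysialic acid synthase St8sia4 fell in DPCs, and 0 were called in DSCs. Fgfr1, a receptor that NCAM binds, changed by 0.60 and 0.49, Prnp by 0.22 and 0.48, Gfra1, a co-receptor for GDNF, by 1.05 and 1.30, and Gap43 by -0.66 and 1.84.

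Further immunoglobulin adhesion genes, 13 tested, held 4 that rose (Alcam, Icam1, Jam2 and Opcml) and 3 that fell (Mcam, Vcam1 and F11r) in DPCs and 0 called in DSCs. Jam2, a junctional adhesion molecule, had 1707, 16197, 2354 and 4794 counts and rose by 3.28 in DPCs (3.21 to 3.36), against 0.76 in DSCs. Icam1 had 17 counts in low-passage and 200 in high-passage DPCs, a rise of 3.45, and was at 116 and 101 counts in DSCs. Thy1 was lower in DPCs than in DSCs at passage 9 by 2.91 on the log2 scale, as Ncam1 was by 2.87, and Bsg changed by 0.34 and 0.52 with passage.

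Patterns closest to those of the 5 members with a mean count of at least 100 were sought among 12191 genes, as the root mean square (RMS) difference of log2 CPM centred over the 4 libraries. For Cdh13 the nearest was Pcdhb5, a clustered protocadherin, with 75, 622, 95 and 120 counts and an RMS difference of 0.21, followed by the secreted protein gene Angptl2 with 7609, 35722, 7122 and 8567 counts and 0.24. For Ncam1 they were Gm15851 (0.12) and Cmya5 (0.13, with 226, 98, 746 and 786 counts), and for Cdh6 Hs6st1 and Adap2 (both 0.13). Cdh2 and Cdh11, whose levels hardly differed between libraries, lay nearest to Ppia and Gm12346 (both 0.02) and to Akap8 and H2afv (both 0.02). Over 4 libraries many genes share a pattern, and these neighbours are a description.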

How the data were processed

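Whole-number read counts per gene, not normalized, were deposited by the authors in a single table, and FPKM in a separate file per library. The deposited FPKM are fragments that the authors scaled by gene length and library depth. Columns were assigned by sample title. The submitters' processing notes name Bowtie 0.12.2 and builds mm8 and mm9, without a role, whereas 94.1% of the 51633 gene IDs found in GENCODE M21 had the same GRCm38 position. The counting program and use of strand are not given in the sources used here. The labels name a TruSeq kit and the study's methods another kit with poly-T selection and paired-end sequencing.

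Counts were scaled by TMM in edgeR 4.0.16 (R 4.3.3, limma 3.58.1) over genes with a mean count of at least 10, and differences were taken on log2 CPM with a prior count of 2. With 1 library per group there is no p-value. Intervals are exact Clopper-Pearson 95% intervals of a library's share of 2 counts, and those of a difference between passage changes are exact conditional or Woolf intervals of an odds ratio. Both cover counting error only, as do the 3-count limits. The steps were tested on simulated data. The genes changed there had a mean count of at least 100, so the low counts of Cdh3, Cdh4 and L1cam were not covered. No spread between cultures was simulated. Members and lists were chosen with earlier results of these data known. Genes named from a list were those called in both cell types in the same direction, the 2 with the highest mean FPKM, and the 2 with the largest passage change at a mean count of at least 100. Marker lists covered dermal papilla, dermal sheath, fibroblast, keratinocyte, melanocyte, Schwann, skeletal muscle, endothelial, immune and neuronal genes. Alternatives were other scalings (DESeq2 1.42.0 size factors, upper-quartile factors, total counts), prior counts of 0.5 and 10, no filter or a mean count of at least 100, FPKM with 0.1 or 1 added, halved counts and a 2-fold threshold.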

Additional observations from a re-analysis of the deposited data

Results flagged for a closer look

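Each gene here changed in opposite directions with passage in DPCs and DSCs. With 1 library per group the difference between the cell types was not tested. Cdh13 was higher at passage 9 in DPCs and lower in DSCs, and the log2 changes differed by 3.21. Ncam1 was lower in DPCs and slightly higher in DSCs, and the changes differed by -1.23. Cdh4 had counts in low-passage DPCs (16) and high-passage DSCs (180) and 0 in the remaining libraries, and the fitted log2 changes differed by -9.53, a value that depends on the prior count because of the counts of 0.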

How the results depend on the processing

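Of 256 log2 differences of the 8 genes under other settings, 243 kept their direction and side of the 4-fold threshold, 13 lost the call and 0 reversed. The lost calls were those of Cdh3 in DPCs, Cdh4, and L1cam in DSCs. Those of Cdh13 in DPCs and at passage 9, and of Ncam1 at passage 9, held under all 8 settings tried on them, with Cdh13 in DPCs between 2.72 and 2.76. The number of members called with passage in DPCs, 3 as reported, was 1 with a prior count of 10, a mean count of at least 100, or 0.1 or 1 added to the FPKM, and 5 at a 2-fold threshold. In DSCs it was 2 as reported and 0 with a mean count of at least 100 or with 1 added to the FPKM. Between DPCs and DSCs at passage 3 it was 1 as reported, 0 with a prior count of 10, a mean count of at least 100, or 0.1 or 1 added to the FPKM, and 3 at a 2-fold threshold. The higher count minimum removes Cdh3, Cdh4 and L1cam by construction, and a larger added value shrinks low genes. Of 440 list medians, 398 moved by less than 0.25 on the log2 scale and 42 by more, mostly with the higher count minimum or an added FPKM. The missing replicates limit all 8 genes, and for Cdh3, Cdh4 and L1cam the low counts are a further limit.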

Other observations

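Marker genes of further cell types gave the following values, with DPCs before DSCs and passage 3 before passage 9 in each. The 7 immune markers in the table summed to 113, 63.7, 164 and 92.3 CPM, mostly Lyz2 (3396, 1963, 4971 and 3567 counts), with Cd3e at 0 in all libraries. The melanocyte genes Dct, Tyrp1, Tyr and Mlana were at 0 in all 4 libraries, and the 8 melanocyte markers summed to 11.9, 28.3, 15.5 and 13.0 CPM, mostly Mitf. The 9 skeletal muscle markers summed to at most 0.373 CPM in any library, with Myod1, Myf5, Pax7, Ckm and Actc1 at 0 in all. The 16 papilla markers summed to 1089, 855, 653 and 1245 CPM.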
